A study of Mus musculus with 4 samples.

Results

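The response of miR-155 mis-expressing RAW 264.7 cells to RANKL and M-CSF was read from 2 of the 4 arrays of the series. RAW 264.7 is an established mouse macrophage-like line that can form osteoclasts. One array holds total RNA of cells transfected with a vector expressing miR-155 and left unstimulated. The other holds RNA of such cells after 72 h with RANKL and M-CSF, given at 20 ng/ml, and the text does not say whether that dose holds for each cytokine. The other 2 arrays are cells with a control vector in the same 2 states and are used as the reference response. The labels name the control cells both by a control vector and as wild-type, and do not say whether the transfected cells were a pool or 1 clone. Each group has 1 array, so no value below has a replicate error and no difference was tested; the number of arrays limits the precision. The response was taken as the stimulated minus the unstimulated log2 value, for each of 19938 genes with a probe set of 1 gene symbol. Of these, 13545 had a value on at least 1 of the 4 arrays above a floor of 4.25, the 95th percentile of 1210 olfactory and vomeronasal receptor probe sets.

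Osteoclasts are multinucleated cells that dissolve bone. RANKL, acting through its receptor RANK, and M-CSF, acting through CSF1R, turn macrophage precursors into osteoclasts by way of NF-kB, AP-1 and calcium signals that converge on the transcription factor NFATc1. miR-155 is a microRNA of activated myeloid and lymphoid cells that represses messenger RNAs whose untranslated regions pair with its seed, among them transcripts of regulators of myeloid differentiation. Both mature strands of the mouse hairpin, from RefSeq (GRCm38.p6, chromosome 16, plus strand), are shown because the vector is named for this microRNA; the seed, bases 2 to 8, is in capitals. The 5p strand spans 84714143 to 84714165 and the 3p strand 84714182 to 84714202. The labels do not say which strand or species the vector carries.
mmu-miR-155-5p: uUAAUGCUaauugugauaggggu
mmu-miR-155-3p: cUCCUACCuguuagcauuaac
The probe set of the Mir155 gene gave 3.58 to 3.73 on the 4 arrays, under the floor throughout. It is no probe for the processed strands, and the vector therefore has no check in these data.

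The labelled cell type fitted most of its markers. All 9 macrophage markers set for this check lay above the floor on the unstimulated miR-155 array, at 8.35 to 13.60, and on the stimulated one, at 7.92 to 13.32. Of the longer list of 28 macrophage markers used below, 24 had a value above the floor. Mrc1, Cd163, Adgre4 and Mertk lay below it on all 4 arrays. The 8 osteoclast markers had a median level of 5.01 without and 9.56 with stimulation in miR-155 cells, against 5.57 and 11.63 in control-vector cells. Markers of other cells were dimmer: the median level was 4.12 for 15 T and B cell markers, 4.51 for 16 fibroblast and osteoblast markers and 3.88 for 17 granulocyte and mast cell markers on the stimulated miR-155 array. Of these, 6, 10 and 4 lay above the floor on that array, and the highest reached 4.84, 5.79 and 4.72. In these bulk samples, fewer responding cells and less RNA per responding cell cannot be told apart.

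In miR-155 cells, 156 genes were more than 2-fold higher with RANKL and M-CSF, which is 1.15% of the genes above the floor, and 25 were more than 2-fold lower, or 0.185%. No receptor probe set differed by 2-fold, and 95% of them differed by less than 0.41 on the log2 scale, which is the noise reference used here for dim probe sets. The higher genes had a median difference of 1.42; 35 of them exceeded 2, 11 exceeded 3 and 3 exceeded 5. The lower genes reached at most -1.37, with a median of -1.09. The higher genes had a median unstimulated level of 6.33, against 6.59 for all genes above the floor, and 7 started below the floor. Across all genes above the floor the median difference was -0.03, and the middle 95% lay between -0.64 and 0.70.

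**Figure D1:**
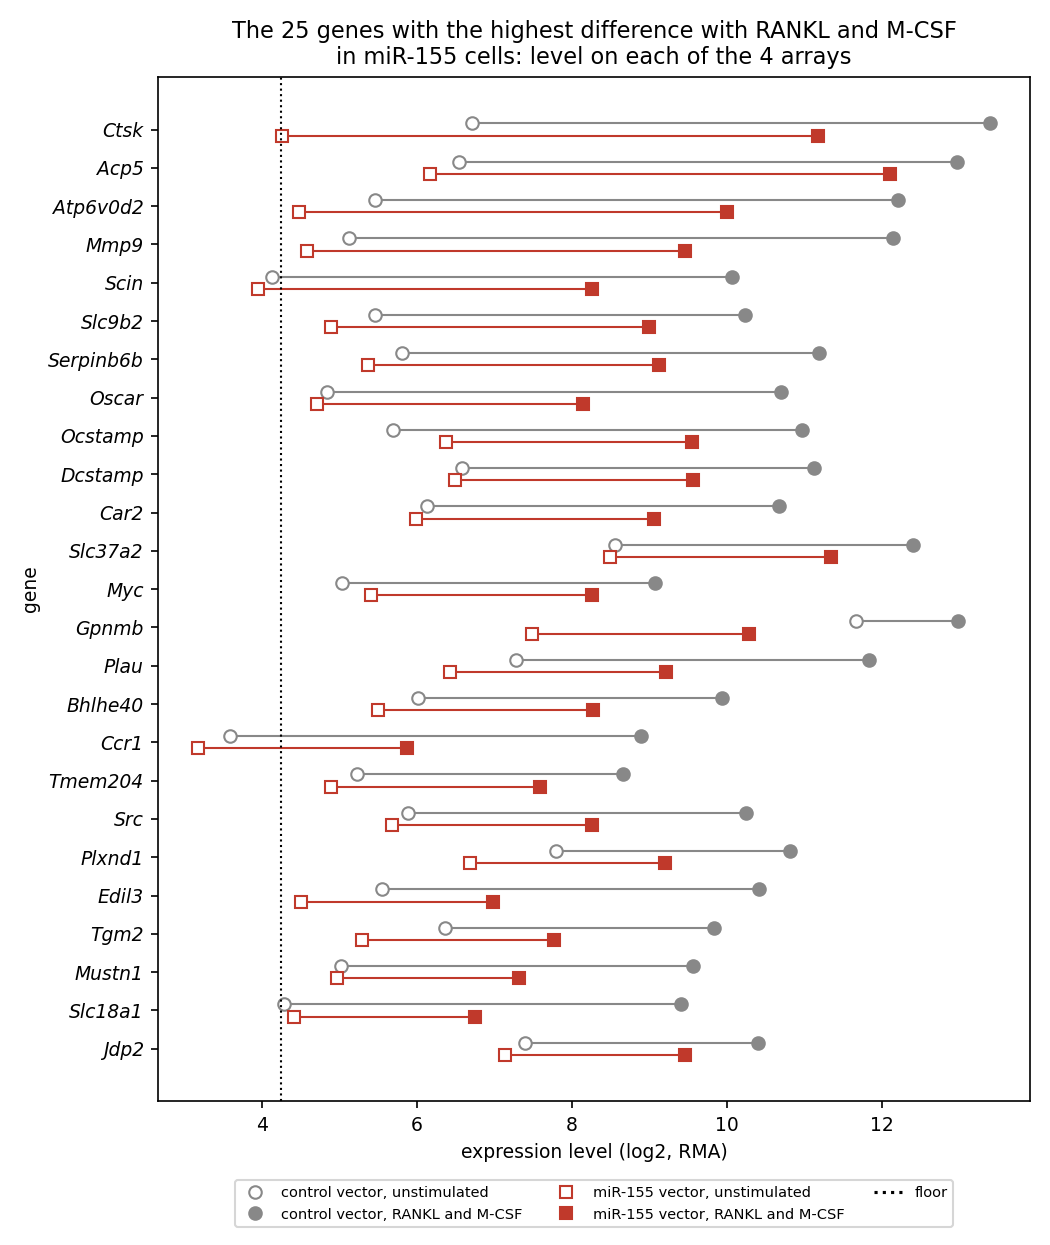
Expression level (log2, x axis) of the 25 genes with the highest difference in miR-155 cells, on each of the 4 arrays. Open symbols are unstimulated and filled symbols stimulated arrays, grey circles the control vector and red squares the miR-155 vector, 1 array each; the dotted line is the floor of 4.25. Each filled red square lies to the left of its filled grey circle, and Gpnmb is the gene whose unstimulated levels lie farthest apart, at 7.49 and 11.67.

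Among the most responsive were 3 genes of the bone matrix degradation list. Ctsk, the collagen-degrading cathepsin K, lay at 4.26 unstimulated and 11.18 stimulated in miR-155 cells, higher by 6.92, or 121-fold. In control-vector cells it lay at 6.72 and 13.40, a difference of 6.68. The log2 difference was thus as large in miR-155 cells, from a start next to the floor, while both levels stood lower. Acp5, the tartrate-resistant acid phosphatase, went from 6.17 to 12.10 (61.0-fold) against 6.54 to 12.97 in control-vector cells. Mmp9, a gelatinase, went from 4.59 to 9.46 (29.4-fold) against 5.12 to 12.14. Stimulated miR-155 minus stimulated control levels were -0.87 for Acp5 and -2.68 for Mmp9, so Mmp9 ended farther below its control level. Of the 11 matrix degradation genes above the floor, these 3 were more than 1.5-fold higher and none was lower. Over all genes 3.43% were that much higher and 3.74% lower. The list median was 0.13. Mmp14, a membrane-bound collagenase, stood at 5.26 and 5.03 in miR-155 cells, although it went from 4.95 to 8.60 in control-vector cells.

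Genes that acidify the resorption space followed. Atp6v0d2, the V-ATPase d subunit that osteoclasts use, went from 4.48 to 10.00 in miR-155 cells (45.9-fold) and from 5.46 to 12.21 in control-vector cells. Of the 17 V-ATPase subunits, 10 were more than 1.5-fold higher and none was lower, with a median of 0.75 against 1.77 in control-vector cells. Over all genes above the floor 3.43% were that much higher in miR-155 cells and 3.74% lower. After Atp6v0d2 came Atp6v1d (1.92), Atp6v1b2 (1.53) and the osteoclast a3 subunit Tcirg1 (1.33, from 9.86 to 11.20). Subunits of the peripheral and the membrane sectors were thus both among the higher ones.

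The acid and ion transport list, which holds Tcirg1 as well, had a median of 0.90. Of its 12 genes, 6 were more than 1.5-fold higher and none lower, where 3.43% and 3.74% of all genes were. Without Tcirg1, an alternative chosen after the values were seen, 5 of 11 were higher and the median was 0.47. Slc9b2, a sodium-proton antiporter, went from 4.90 to 9.0 in miR-155 cells, and Car2, the carbonic anhydrase that supplies protons, from 6.0 to 9.06. The sugar-phosphate transporter Slc37a2 went from 8.49 to 11.35. Clcn7, the lysosomal chloride-proton exchanger, went from 7.69 to 9.79, whereas its partner Ostm1 (0.47, from 7.46 to 7.93) and the sorting nexin Snx10 (0.46, from 7.51 to 7.97) stayed within 1.5-fold. In control-vector cells Ostm1 was higher by 1.75 and Snx10 by 2.43. The list median depended on the filter on low values and was also 0.47 without a filter.

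Fusion and attachment genes responded in part. Dcstamp, a membrane protein required for osteoclast fusion, went from 6.49 to 9.56 in miR-155 cells, and Ocstamp, which acts with it, from 6.37 to 9.55. Their control-vector levels were 6.58 and 11.13 for Dcstamp and 5.69 and 10.97 for Ocstamp. Of 20 fusion genes, 7 were more than 1.5-fold higher and none lower, around a median of 0.21. Of 34 integrin, podosome and sealing zone genes 8 were higher and 1, Wipf1 (-0.73), was lower, around a median of 0.08. The shares over all genes above the floor were 3.43% higher and 3.74% lower. The fusion and sealing zone lists share both subunits of the vitronectin receptor and Dock5. They also share Rac1 (-0.21), Cd44 (-0.08) and Sh3pxd2a (0.08), which were within 1.5-fold. Atp6v0d2 counts among the fusion genes too.

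Among the sealing zone genes, the actin-severing Scin lay below the floor unstimulated and at 8.26 stimulated, at least 16.2-fold higher, against at least 56.5-fold in control-vector cells. Src, the kinase needed for the ruffled border, went from 5.68 to 8.26. The vitronectin receptor subunits differed from each other: Itgav went from 8.40 to 9.96 and Itgb3 only from 5.30 to 6.44, with control-vector differences of 3.53 and 3.61. Itgb3 thus kept one of the 10 smallest fractions of its control log2 difference (31.7%) among the 145 genes past 2-fold the same way in both vectors with all 4 values above the floor. Gsn, another actin-severing protein, was higher by 1.21.

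Most genes of the receptor side stayed within 1.5-fold, as most genes on these arrays did. Tnfrsf11a, which encodes RANK, lay at 8.91 and 8.71 in miR-155 cells and at 8.53 and 9.44 in control-vector cells. Csf1r was lower by -0.27 in miR-155 cells, to 11.73. Both differences lay within the middle 95% of genes of like unstimulated level, -0.78 to 0.57 for levels of 8 to 10 and -0.72 to 0.46 above 10. Of 23 RANK and NF-kB genes, 3 were more than 1.5-fold higher and 1 lower, around a median of 0.06: the autophagy adaptor Sqstm1 (0.99), the inhibitor Nfkbie (0.70) and the adaptor Traf1 (0.62) were higher, and the NF-kB subunit Rela (-0.66) was lower. Over all genes above the floor, 3.43% were that much higher in miR-155 cells and 3.74% lower. In control-vector cells 12 of the 23 were higher, where 12.4% of all genes were, and none lower.

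Of the M-CSF list none of 17 was more than 1.5-fold higher and 1 was lower (Akt1, -0.80). For both lists of this paragraph the shares over all genes were 3.43% higher and 3.74% lower. Oscar, the collagen-sensing immunoreceptor that signals through an ITAM adaptor, went from 4.72 to 8.14 in miR-155 cells and from 4.84 to 10.70 in control-vector cells. It stood far above the other 16 ITAM receptors and adaptors, of which Syk (0.71), Clec5a (0.63) and Tec (0.60) were past 1.5-fold and Fyn (-0.63) was lower. Clec5a had the other direction in control-vector cells (-2.15). Ccr1, a chemokine receptor, had no value above the floor unstimulated and 5.87 stimulated, at least 3.07-fold higher, against at least 24.9-fold in control-vector cells. The calcitonin receptor Calcr stayed below the floor on both miR-155 arrays.

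Transcription factors split into a few large responses and many near 0. Of 27 osteoclast transcription factors, 5 were more than 1.5-fold higher, all of them past 2-fold, and 2 were more than 1.5-fold lower. Over all genes 3.43% were past 1.5-fold higher, 1.15% past 2-fold higher and 3.74% past 1.5-fold lower. The median (-0.17) and mean (0.18) of the list differ in sign. Myc went from 5.41 to 8.26, the AP-1 factor Jdp2 from 7.14 to 9.47, and Prdm1, a repressor of macrophage genes, from 4.38 to 6.44. Nfatc1 went from 8.27 to 9.69 and the AP-1 factor Fosl2 from 7.47 to 8.74. In control-vector cells Myc was higher by 4.04, Jdp2 by 3.01, Nfatc1 by 2.34 and Fosl2 by 3.47, and Prdm1 was at least 32.0-fold higher. Prdm1 and Fosl2 thus kept a smaller fraction than Myc and Jdp2.

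Fos, the AP-1 subunit required for osteoclast formation, lay at 8.0 on both miR-155 arrays and went from 7.47 to 9.29 in control-vector cells. Spi1, which encodes PU.1, lay at 10.75 and 10.55, and Mitf at 7.07 and 7.47. Tfeb (-0.71) and Runx1 (-0.67) were the lower members. Rcan1, a calcineurin inhibitor and known NFAT target, was higher by 1.48. Together with Nfatc1 it made the 2 of 22 calcium, calcineurin and NFAT genes past 1.5-fold higher, and Camk1 (-0.66) was lower. Over all genes 3.43% were that much higher and 3.74% lower.

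Among 20 restraints on osteoclast formation 3 were more than 1.5-fold higher and 1 lower, where 3.43% and 3.74% of all genes were. Irf8, which holds back NFATc1, went from 8.87 to 8.01 (-0.86) in miR-155 cells and from 8.54 to 6.21 in control-vector cells. Id2, an inhibitor of helix-loop-helix factors, went from 6.61 to 7.80, above its stimulated control level of 7.26. Dok3 was higher by 0.72 and Id3 by 0.64. Of the myeloid lineage factors, Bhlhe40 was higher by 2.77 (from 5.50 to 8.27), Tfec by 0.83, and Cebpa, a driver of the granulocyte and macrophage lineage, was lower by more than 2-fold (from 7.74 to 6.53). Its control-vector levels were 7.11 and 5.73.

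**Figure D2:**
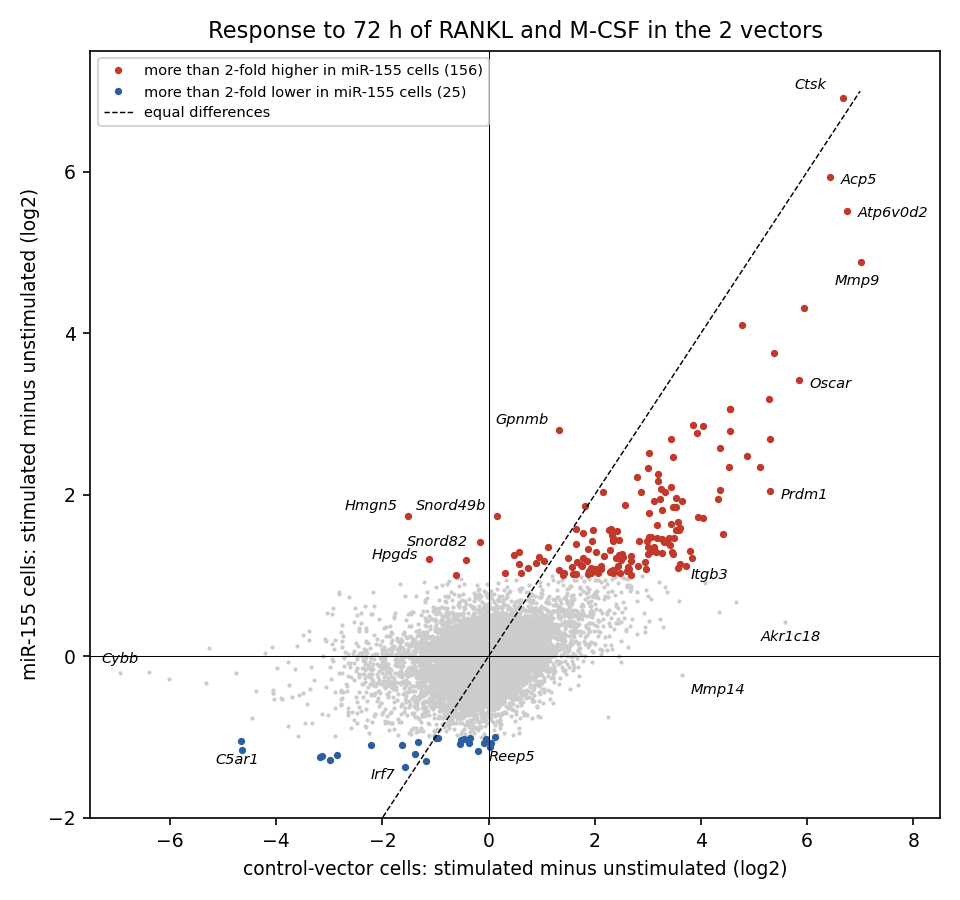
Stimulated minus unstimulated log2 value of each of 13545 genes in control-vector cells (x axis) and miR-155 cells (y axis), 1 array per value. Red and blue points are the 156 genes more than 2-fold higher and the 25 more than 2-fold lower in miR-155 cells, and the dashed line marks equal differences. Of the 156 red points 19 lie above that line, and genes far to the left, such as Cybb, lie close to 0 on the y axis.

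Proteases, their inhibitors and inflammatory mediators were described next. Serpinb6b, a serine protease inhibitor, went from 5.37 to 9.12, and Plau, the urokinase plasminogen activator, from 6.43 to 9.22. The aminopeptidase Anpep went from 5.55 to 7.32 and the cystatin Cst7 was higher by 1.08; these 4 were the ones of 11 urokinase system and protease inhibitor genes past 1.5-fold. Among 24 inflammatory genes 4 were more than 1.5-fold higher and 3 lower, where 3.43% and 3.74% of all genes were. The interleukin 1 antagonist Il1rn (1.96, from 5.42 to 7.37) and the chemokines Ccl3 (1.36, from 10.73 to 12.09), Ccl9 (1.02) and Ccl5 (0.77) were higher. The cytokine Tnf (-0.80) and the chemokines Cxcl10 (-0.83) and Cxcl14 (-0.64) were lower. Ccl5, Tnf and Cxcl14 were named after their values were seen.

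The rest of the 25 highest were Gpnmb, Tmem204 (2.69), the semaphorin receptor Plxnd1 (2.51), the integrin ligand Edil3 (2.48), the transglutaminase Tgm2 (2.47), Mustn1 (2.35) and the vesicular monoamine transporter Slc18a1 (2.34). Gpnmb, a lysosomal and melanosomal glycoprotein, went from 7.49 to 10.29 in miR-155 cells and from 11.67 to 12.99 in control-vector cells. Its stimulated level in miR-155 cells thus stayed below the unstimulated control level. The same held for 3 others of the 156 genes: Anpep (7.32 against 7.96), the growth arrest ligand Gas6 (6.48 against 7.07) and Hpgds (7.19 against 8.58). Siglec15, an ITAM-coupled lectin of osteoclasts named here after its value was seen, went from 6.35 to 7.94.

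The 25 lower genes were led by Irf7, an interferon regulatory factor, which went from 8.72 to 7.36 in miR-155 cells and from 8.29 to 6.72 in control-vector cells. Akna (-1.30), the heparan sulfate proteoglycan Sdc3 (-1.29), the IGF-binding protein Igfbp4 (-1.25), Them6 (-1.24), the galectin Lgals9 (-1.22) and Cebpa (-1.20) came next. Sdc3, Igfbp4, Them6 and Lgals9 were lower by -2.99, -3.17, -3.15 and -2.86 in control-vector cells. P2ry6, a nucleotide receptor, went from 9.59 to 8.43 against 9.46 to 4.82, and the complement receptor C5ar1 from 8.01 to 6.96 against 8.28 to below the floor. These macrophage receptors were thus lower in both, and by much less in miR-155 cells on the log2 scale. With the values turned back to a linear scale, the loss was 62.8% of the control loss for P2ry6 and 44.3% for C5ar1. Tfap4 (-1.10), Adap1 (-1.09), Oas3 (-1.07), Rab11fip5 (-1.02) and Selenon (-1.02) were lower past 1.5-fold in control-vector cells too.

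The remaining 11 of the 25 lower genes were not past 1.5-fold lower in control-vector cells. They were Reep5 (from 9.65 to 8.49), the repressor Cic (from 8.55 to 7.43), the cell cycle factor E2f4 (-1.09), the nucleoporin Pom121 (-1.07), the lipoprotein receptor Scarb1 (-1.07), the microRNA gene Mir540 (-1.07), Tet3 (-1.04), Angptl8, Ncdn (-1.03), Smagp (-1.01) and Glcci1 (-1.0). Cic stood at 8.45 and 8.48 in control-vector cells and Pom121 at 7.60 and 7.65. Angptl8 lay under the floor when stimulated, at least 1.95-fold lower. The second probe set of Tet3, an enzyme that oxidises methylated cytosine, gave -0.46.

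Markers of macrophages and of dividing cells, which were far lower in stimulated control-vector cells, stood nearly level in miR-155 cells. Of 24 macrophage markers, 1 was more than 1.5-fold higher (Gpnmb) and 3 were lower (C5ar1, Siglec1 at -0.63 and Clec10a at -0.59), around a median of -0.18, against -2.22 in control-vector cells, where 20 were lower (15.2% of all genes were). Cybb, the phagocyte oxidase subunit, lay at 12.08 and 11.87 in miR-155 cells and at 12.21 and 5.26 in control-vector cells. The adhesion receptor Adgre1 lay at 8.35 and 7.92 against 9.26 and 4.88, and the fractalkine receptor Cx3cr1 at 10.84 and 10.51 against 10.32 and 5.0. Cd14, Clec4e, Ms4a6b, Ms4a6c, Pld4, Pmp22, Tlr7, Tlr13 and the near-identical lysozyme genes Lyz1 and Lyz2, which their probe sets may not separate, were likewise within 1.5-fold in miR-155 cells and lower by 4.04 to 6.39 in control-vector cells.

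Cell cycle genes gave a like picture. For 29 G2/M and mitosis genes the median was 0.03 with the miR-155 vector and -2.27 with the control vector. In miR-155 cells the kinesin Cenpe (0.60) was past 1.5-fold higher and the kinase Plk1 (-0.62) lower, and Mki67, a proliferation marker, lay at 10.02 and 10.17. The 30 G1/S and DNA replication genes had a median of -0.18, with the replication factor Gins2 (-0.63) as the one member past 1.5-fold, against -1.87 in control-vector cells, where 29 were lower.

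Interferon-stimulated genes had a median of -0.34, with 10 of 31 more than 1.5-fold lower and none higher, against -0.91 and 23 lower in control-vector cells. Of all genes, 3.74% were that much lower in miR-155 cells and 15.2% in control-vector cells. After Irf7 and Oas3, an antiviral enzyme, came Cxcl10 (-0.83) and the antiviral GTPase Mx2 (-0.72). Oas3 went from 9.08 to 8.01 in miR-155 cells and from 8.62 to 7.28 in control-vector cells. For both genes the difference in miR-155 cells was thus close to that in control-vector cells.

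**Figure D3:**
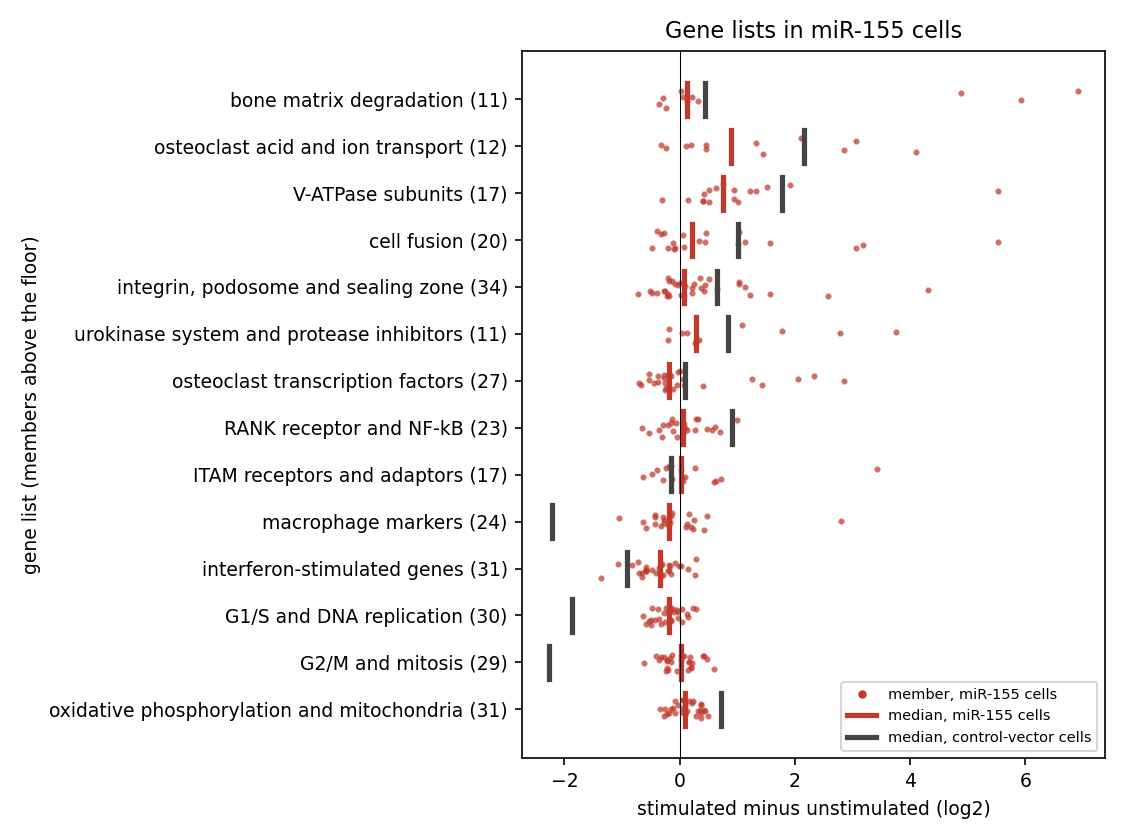
Stimulated minus unstimulated log2 value (x axis) of the members of 14 gene lists in miR-155 cells, 1 red point per gene above the floor, with the number of such genes in brackets. Red bars are list medians in miR-155 cells and dark bars those in control-vector cells. The red medians of the macrophage and both cell cycle lists lie at -0.18 to 0.03 while the dark ones lie at -2.27 to -1.87, and the V-ATPase and ion transport lists have the highest red medians, 0.75 and 0.90.

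Metabolic and organelle lists had medians between -0.11 and 0.09, where the median of all genes was -0.03. Members called higher or lower were past 1.5-fold, as 3.43% and 3.74% of all genes were in miR-155 cells. Medians in miR-155 cells were 0.09 for 31 oxidative phosphorylation genes, none of them past 1.5-fold while 23 were higher in control-vector cells, and 0.09 for 27 lysosomal genes, 6 of which were higher, led after Gpnmb by the galactosidase Glb1 (1.11). They were 0.08 for 19 iron and heme genes, 4 of which were higher: the iron importer Slc11a2 (0.83), the exporter Slc40a1 (0.78), the transferrin receptor Tfrc (0.72) and the ferritin receptor Ncoa4 (0.59). They were -0.02 for 20 glycolysis genes, with Hk3 (0.89) higher, and -0.03 for 23 cholesterol and fatty acid synthesis genes, with the synthase Fasn (-0.73) and the desaturase Scd1 (-0.66) lower. Amino acid and endoplasmic reticulum stress genes had -0.11, with the amino acid transporters Slc7a5 (-0.97) and Slc7a1 (-0.60) lower.

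The cell cycle inhibitor and p53 list had a median of -0.01, with 2 of 22 higher (Gadd45b at 0.90 and Trp53inp1 at 0.68) and 3 lower. For the lists of this paragraph the shares of all genes past 1.5-fold were 3.43% higher and 3.74% lower. For 10 MHC class II and dendritic cell markers the median was 0.06, with the activation marker Cd83 (from 5.81 to 7.69) and the costimulatory ligand Cd80 (0.97) higher. Genes reported elsewhere as miR-155 targets had -0.18, with 1 of 31 higher, Trp53inp1, and none past 1.5-fold lower. The receptors for chemokines and cytokines other than Ccr1 held no higher member, and Il6ra (-0.81), Il10ra (-0.72) and Tnfrsf1a (-0.70) were lower. No T and B cell, fibroblast and osteoblast, or granulocyte and mast cell marker was past 1.5-fold in miR-155 cells.

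The 2 vectors' responses share no array. Among the 156 genes higher with the miR-155 vector, 142 passed 2-fold in control-vector cells as well, which is 91.0% of the former and 18.3% of the 777 genes higher in the latter (5.74% of all genes). Of the 25 lower genes 12 were shared, 48% of the former and 1.28% of the 939 lower in control-vector cells (6.93%). Of the 777 genes, 134 more were between 1.5-fold and 2-fold higher in miR-155 cells, 500 were within 1.5-fold, and 1, the phosphatase gene Dusp1, was more than 1.5-fold lower. Of the 939 genes, 111 more were between 1.5-fold and 2-fold lower, 796 were within 1.5-fold and 20 were more than 1.5-fold higher. As a background, the 1.5-fold limit was crossed upward by 3.43% and downward by 3.74% of the 13545 genes in miR-155 cells. Staying within it was thus usual for any gene there. The 142 and 134 of the 777 genes that passed it upward were a larger share than that 3.43%. Likewise the 12 and 111 of the 939 genes that passed it downward were a larger share than that 3.74%. No difference between these shares was tested.

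How much of the control response was seen depended on the scale. For genes higher in control-vector cells, the median fraction on the log2 scale grew with the size of the control difference. It was 23.4% for the 555 genes higher by 1 to 2, 33.3% for 139 genes at 2 to 3, 44.2% for 56 genes at 3 to 4, 51.0% for 15 genes at 4 to 5 and 64.9% for the 12 genes above 5. With the log2 values turned back to a linear scale, the gain in miR-155 cells was a nearly even fraction of the gain in control-vector cells: 14.7%, 15.9%, 17.1%, 16% and 18.5% in the same 5 classes. The last 2 classes hold under 20 genes each. Over all 777 genes the linear median was 15%, with an interquartile range of 5.94% to 24.3%.

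For the 939 genes lower in control-vector cells, the linear loss in miR-155 cells had a median of 15.8% of the control loss. It was more scattered, with an interquartile range of -5.47% to 38.1%, where a negative value means a higher level after stimulation. The median was 16.3% for the 704 genes lower by 1 to 2, 11.6% for 189 at 2 to 3, 24.7% for 30 at 3 to 4, 26% for 11 at 4 to 5 and 12.4% for 5 beyond 5. On the log2 scale the medians in these classes were 12%, 6.56%, 12.1%, 11.1% and 3.0%, with no growth by size. Among genes whose unstimulated arrays lay within 1.5-fold of each other, an alternative chosen after the values were seen, the linear medians were 14.8% for 691 higher and 17.7% for 811 lower genes.

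**Figure D4:**
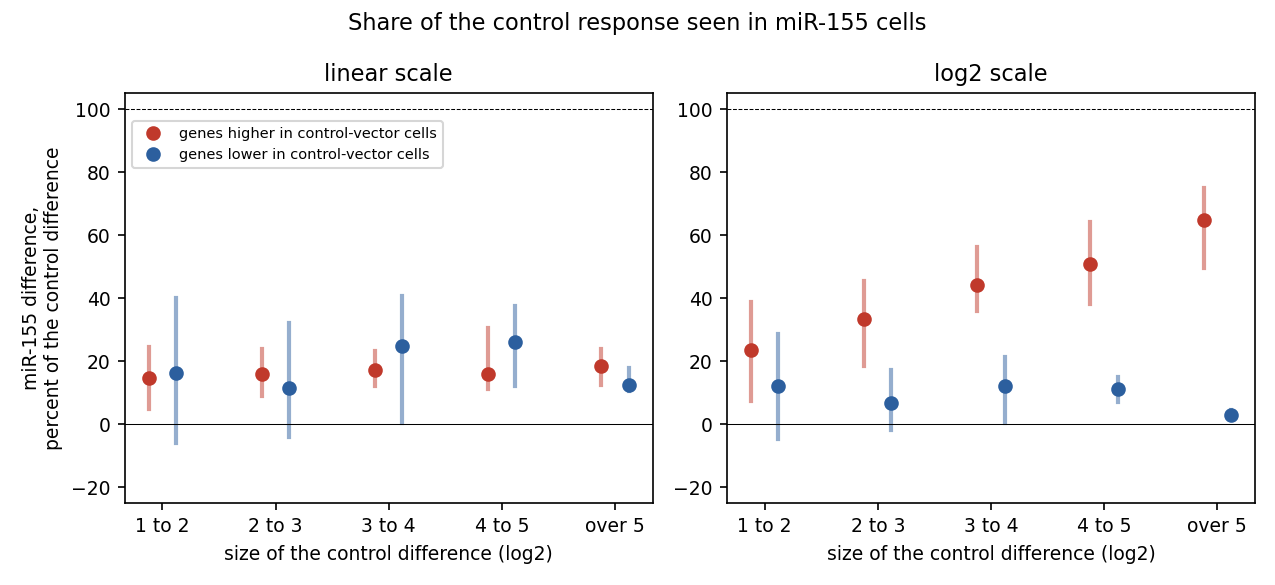
Difference in miR-155 cells as a percent of the difference in control-vector cells (y axis), for genes past 2-fold in control-vector cells grouped by the size of that control difference in log2 units (x axis), on the linear scale (left) and the log2 scale (right). Points are medians over genes and bars the interquartile range, red for genes higher and blue for genes lower in control-vector cells; the dashed line marks an equal difference. The red linear medians stay between 14.7% and 18.5%, and the red log2 medians climb from 23.4% to 64.9%.

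Gene groups differed in that linear fraction. Among members past 2-fold in control-vector cells, the median was 21.8% for 16 V-ATPase subunits, 26.9% for 8 acid and ion transport genes, 21.8% for 10 fusion genes and 21.7% for 12 sealing zone genes. It was 13.8% for 8 osteoclast transcription factors, which ranged from -20.5% to 52.3% (Myc). Single effectors and transcription factors spanned a wide range. The fraction was 54.6% for Acp5, 47.8% for Jdp2, 40.7% for Nfatc1 and 31.0% for Dcstamp. It was 21.6% for Ctsk, 15.2% for Mmp9, 11.1% for Prdm1 and 10.6% for Itgb3. Among genes lower in control-vector cells, the fraction was 53.8% for 15 interferon-stimulated genes, 19.1% for 28 G1/S genes, 13.4% for 18 macrophage markers and -2.82% for 29 G2/M genes. Of these 4 lists, the interferon list had the highest and the G2/M list the lowest fraction; other lists, with 1 to 6 such members, lay beyond both. Whether the groups differ beyond replicate error was not tested.

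Single genes were ranked by the log2 fraction, which gives another order than the linear fractions above. On the linear scale Gpnmb and Ctsk, among the 10 highest here, kept 21.9% and 21.6%, and P2ry6, among the 10 lowest, 62.8%. Others, such as Id2 (159%) and Itgb3 (10.6%), lay high or low on both scales. Of the 145 genes past 2-fold the same way in both vectors with 4 values above the floor, 10 kept the highest fraction of the control log2 difference: Gpnmb, Ccl3, Id2, Akna, Ctsk, Eno3, Rilpl2, Coq8a, Acp5 and Cebpa. Eno3, the muscle enolase, went from 7.30 to 9.16 in miR-155 cells and from 7.52 to 9.34 in control-vector cells. Coq8a, a kinase-like protein of ubiquinone synthesis, went from 5.76 to 7.80 against 6.26 to 8.41. Besides Itgb3, P2ry6 and Fosl2, the 10 lowest were Pheta1 (1.12 against 3.72), Insl6 (1.10 against 3.57), the EGF-family ligand Hbegf (1.22 against 3.84), the histone gene H2bc4 (1.52 against 4.42), the receptor kinase Mst1r (1.31 against 3.79), the ketone body enzyme Bdh1 (1.09 against 2.97) and the complement inhibitor Cd59a (1.29 against 3.46).

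Of the 83 genes higher by more than 3 in control-vector cells, 6 were within 1.5-fold in miR-155 cells, against 34 of the 46 genes lower by more than 3. Most genes on these arrays stayed within that limit in miR-155 cells, where 3.43% crossed it upward and 3.74% downward. Those 6 were the steroid-metabolising enzyme Akr1c18, the metallothionein Mt3 (from 6.24 to 6.79 in miR-155 cells, from 6.61 to 10.95 in control-vector cells), Mmp14, Slc45a3 (0.37 against 3.28), Nyap2 and the growth hormone receptor Ghr. Akr1c18 lay below the floor on both miR-155 arrays and at least 28.7-fold above it with stimulation in control-vector cells. Slc45a3, Nyap2 and Ghr were named after their values were seen.

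A few genes were past 2-fold in miR-155 cells and not past 1.5-fold the same way in control-vector cells. Of the 156 higher genes, 10 were not past 1.5-fold higher in control-vector cells, where 3 of them were past 1.5-fold lower, and 6 of these encode small nucleolar or Cajal body RNAs, which guide chemical modification of ribosomal and spliceosomal RNA. Snord49b went from 7.69 to 9.43 in miR-155 cells and lay at 7.29 and 7.44 in control-vector cells. Snord82 went from 6.11 to 7.53 against 5.66 and 5.51. Both stimulated miR-155 values were the highest of the 4 arrays. The others were Snord16a (1.30 against 0.57 in control-vector cells), Snord87 (1.19 against -0.42), Snord22 (1.14 against 0.57) and Scarna13 (1.04 against 0.30). Snord16a and Snord22 thus lay just under the 1.5-fold limit in control-vector cells.

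Most of these RNA genes were higher in stimulated miR-155 cells. Of 49 small nucleolar and Cajal body RNA genes above the floor, 43 had a difference above 0, 20 by more than 1.5-fold and 9 by more than 2-fold, and none was more than 1.5-fold lower. The median was 0.46, against -0.03 over all genes. Of all genes 3.43% were past 1.5-fold higher, 1.15% past 2-fold higher and 3.74% past 1.5-fold lower. In control-vector cells 20 of the 49 were above 0 and the median was -0.06, with 6 past 1.5-fold higher and 11 lower. Whether the 2 vectors differ in these genes beyond replicate error was not tested. With 1 RNA sample per group, a difference between RNA samples, extraction included, and a difference between conditions cannot be told apart.

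**Figure D5:**
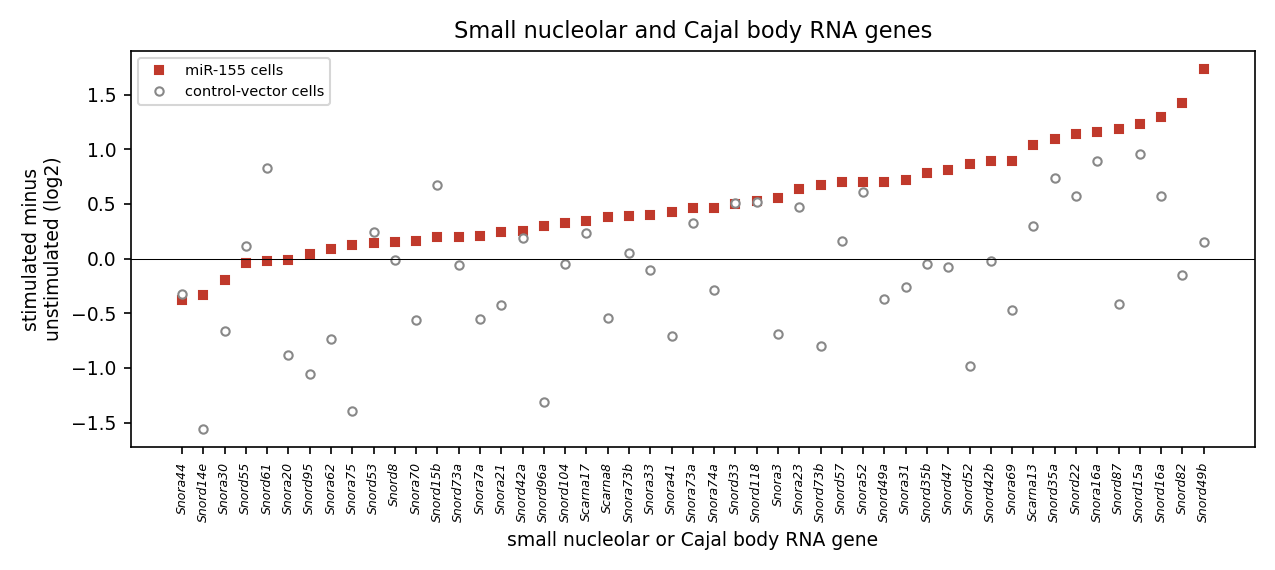
Stimulated minus unstimulated log2 value (y axis) of 49 small nucleolar and Cajal body RNA genes (x axis, ordered by the value in miR-155 cells), 1 array per side. Red squares are miR-155 cells and open circles control-vector cells. Of the 49 squares 43 lie above 0, while 20 of the 49 circles do.

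The other 4 of the 10 were Hmgn5, Ctla2b, Hpgds and Ube2v2. Hmgn5, a nucleosome-binding protein, went from 5.22 to 6.96 in miR-155 cells and from 6.45 to 4.94 in control-vector cells. Hpgds, the prostaglandin D synthase, went from 5.98 to 7.19 against 8.58 to 7.46. For both genes the unstimulated arrays differed, and the responses ran in opposite directions. Ctla2b, a cysteine protease inhibitor-like gene, went from 4.75 to 6.0 in miR-155 cells and from 4.74 to 5.21 in control-vector cells. Ube2v2, a ubiquitin-conjugating enzyme variant, was higher by 1.01, and its other 2 probe sets gave 1.00 and 0.29.

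Promoters were searched for motifs of factors named above, in the 250 bases before each RefSeq transcription start (GRCm38.p6), both strands. Of the 156 higher genes, 111 matched a promoter entry, giving 147 promoters. The AP-1 site TGANTCA was in 8.84% of them, against 4.65% of 13535 promoters of genes above the floor and 6.75% of all 32851 promoters. The NFAT core GGAAA was in 55.1% against 53.1% and 55.6%, the PU.1 core GGAAGT, which can overlap it, in 17.0% against 22.2% and 19.7%, and the MITF and TFE sites TCACGTG or TCATGTG in 7.48% against 6.41% and 6.28%. The AP-1 share, which rests on 13 promoters, lay above both backgrounds and the PU.1 share, which rests on 25, below both. No difference was tested.

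Examples chosen after the search are shown for responding genes with such a site, to place it relative to the start; the site is in capitals and each sequence reads 5′ to 3′ up to the base before the start. The Clcn7 promoter shown (chr17:25133141-25133390, plus strand) holds TCACGTG from position -16. Another Clcn7 promoter, not shown (chr17:25136381-25136630, plus strand), holds TCATGTG from -42. The Slc37a2 promoter (chr9:37255739-37255988, minus strand) holds an AP-1 site from -107, and the Il1rn promoter (chr2:24336610-24336859, plus strand) one from -141. A match is a description of letters and not evidence of binding.
Clcn7: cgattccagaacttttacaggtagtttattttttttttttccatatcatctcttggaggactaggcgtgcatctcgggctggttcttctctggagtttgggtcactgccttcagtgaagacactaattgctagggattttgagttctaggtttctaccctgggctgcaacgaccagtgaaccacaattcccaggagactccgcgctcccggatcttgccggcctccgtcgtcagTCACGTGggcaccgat
Slc37a2: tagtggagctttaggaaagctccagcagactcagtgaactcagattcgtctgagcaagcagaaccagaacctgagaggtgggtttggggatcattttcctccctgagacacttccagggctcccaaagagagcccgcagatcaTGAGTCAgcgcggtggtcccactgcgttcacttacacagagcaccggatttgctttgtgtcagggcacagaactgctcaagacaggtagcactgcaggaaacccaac
Il1rn: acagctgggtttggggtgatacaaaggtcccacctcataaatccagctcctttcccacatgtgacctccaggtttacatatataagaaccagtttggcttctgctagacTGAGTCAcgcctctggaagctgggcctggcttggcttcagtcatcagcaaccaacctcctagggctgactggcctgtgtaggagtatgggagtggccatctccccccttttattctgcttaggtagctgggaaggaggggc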

How the data were processed

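Total RNA of 4 cultures, 1 per group, was hybridised to Affymetrix Mouse Gene 1.0 ST arrays. The authors deposited a log2 value for every probe set. The submitters' processing notes name RMA and Partek; their versions, and the build, are not given in the sources read. The array medians lay between 4.58 and 4.62. Normalization of this kind evens out distributions, which hides any change in the amount of RNA per cell. The platform annotation gave 21789 of 35557 probe sets 1 gene symbol, 1621 several and 12147 none; 21698 of the first were matched to RefSeq genes (GRCm38.p6). For each gene the probe set with the highest mean was used, which mattered for 999 genes. Differences were counted past 2-fold for genes and past 1.5-fold for list members. Where the dimmer value lay below the floor, the fold is a bound against the floor.

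The 31 gene lists hold 715 genes, 603 of them above the floor and 44 not analysed here. Members and lists were chosen with earlier results of these data known. Named genes were 27 preset ones, the 25 highest and all lower genes, those past 2-fold in miR-155 cells and not past 1.5-fold the same way in control-vector cells, the 10 highest and 10 lowest fractions of the control difference, the 15 largest control differences among genes within 1.5-fold in miR-155 cells, and up to 4 members per list; Gas6, Dusp1, Tfeb, Tec, Ostm1, Snx10, Wipf1, Dock5 and those marked in the text were named after their values were seen. With 1 array per group no test was run. The steps were tested on simulated data. The scripts ran in Python 3.11.15 with pandas 2.3.3 and numpy 2.4.6; scipy was 1.17.1, and figures came from matplotlib 3.10.9.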

Additional observations from a re-analysis of the deposited data

Results flagged for a closer look

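For 2 genes the response ran past 2-fold in opposite directions in the 2 vectors, with 1 array per group, and the difference was not tested. Hmgn5 differed by 1.74 (log2) in miR-155 cells and by -1.52 in control-vector cells. Hpgds differed by 1.21 and -1.13. Groups of 1 array allow no search for samples that stand apart within a group.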

How the results depend on the processing

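No paired analysis was possible because each group has 1 array; for the same reason no array could be left out. Of 473 values under alternative settings, 464 stayed within set limits around the main value, among them all 188 of the preset genes. For gene differences and list medians the limit was a move below the noise reference of 0.41. A value near 0 could thus change sign and still count. For genes with 1 probe set, the settings of the filter and of the probe set choice cannot change the difference, so those counts were fixed in advance. The counts depended on the fold: at 1.5-fold 465 genes were higher and 506 lower, and 67.3% of the higher ones were shared with control-vector cells; at 3-fold 54 were higher and 0 lower. The excess of higher over lower genes at 2-fold is thus not seen at 1.5-fold. Without the small nucleolar, Cajal body, Y and vault RNA genes, an alternative added after the data were seen, 97.2% were shared. The median of the acid and ion transport list was 1.33 with the floor at the 99th percentile and 0.47 either without a filter or without Tcirg1, because members entered or left. Centring or renewed quantile normalization gave 157 to 160 higher and 23 to 24 lower genes, and moved the median of all genes by less than 0.02. Below the floor, levels have no order.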
